A study of Homo sapiens with 12 samples.

Results

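The response of WI-38 cells, an established line of human lung fibroblasts, to transforming growth factor β (TGF-β) was compared between day 20 and day 1 of treatment. RNA sequencing counts of all 12 of the 12 samples of the series were used, 3 flasks of each of 4 conditions: untreated for 1 day (D1), given TGF-β at 2 ng/mL for 1 day (D1+ TGF-β), untreated for 20 days (D20) and given it for 20 days (D20+ TGF-β). The 4 lane columns of a library were summed, and of the 25702 genes counted, the 9490 that reached 10 cpm (counts scaled to a library total of 1000000) in 6 or more libraries were tested. Levels are given in cpm adjusted by TMM, a factor for the makeup of each library. For each gene the D1 response is the log2 fold change of D1+ TGF-β vs D1, the D20 response that of D20+ TGF-β vs D20, and the difference of responses is the D20 response minus the D1 response. All 3 were tested in 1 fit with edgeR's quasi-likelihood test, and a value was called at a Benjamini-Hochberg adjusted p under 0.01, which is the adjusted p given below.

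Cells of the D1 flasks were at passages 2 to 3 and were treated at confluence. The D20 flasks were at passages 5 to 6, those of each treatment were seeded from 1 parent flask, and they had been grown to near confluence with fresh medium, with or without TGF-β, every other day. Day, passage, cell density and parent flask therefore change together and cannot be told apart, and p-values measure the spread between flasks, which may be technical. Bulk RNA also does not tell fewer cells of a kind from less RNA per cell.

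TGF-β binds a pair of receptor kinases that phosphorylate SMAD2 and SMAD3, which enter the nucleus with SMAD4 and act on gene promoters. In fibroblasts it is known for driving the myofibroblast state, in which actin stress fibres, focal adhesions and α-smooth muscle actin are built up and collagens and other matrix proteins are secreted. The pathway also induces its own inhibitors, and in many cell types it restrains the cell cycle.

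Library totals ranged from 8674488 to 18286197 counts. Root mean square deviations of log2 cpm from the condition mean ranged from 0.0731 to 0.210, and the most deviating libraries were D1 replicate 2 (0.210) and D20+ TGF-β replicate 3 (0.190). All 12 of 12 fibroblast markers looked up, such as the collagen genes COL1A1 and COL1A2, were expressed above the filter, with summed levels of 14202 to 16681 cpm at D1, 19716 to 20268 at D1+ TGF-β, 18429.7 to 19794 at D20 and 22313 to 24128 at D20+ TGF-β. The sums do not stand for each marker, since 3 were called higher and 2 lower with TGF-β at D1, and 2 higher and 4 lower at D20. Of 10 epithelial, 8 endothelial, 8 immune and 5 adipocyte markers, 1, 2, 1 and 0 passed it, and EPCAM, CDH5, PTPRC and ADIPOQ, which define these types, were below 1 cpm in every flask. Most of the endothelial sum, 57.1 to 88.8 cpm at D1, 45.8 to 48.6 at D1+ TGF-β, 233 to 259.7 at D20 and 82.5 to 156 at D20+ TGF-β, was the angiopoietin receptor gene TEK.

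A difference of responses was called for 985 genes, 10.4% of those tested, the share beside which the counts of the gene lists below are to be read. It was above 0 for 428 genes (4.51%) and below 0 for 557 (5.87%), so that the D20 response lay below the D1 response more often than above it. Without these composition factors the split was 761 above and 381 below 0, and the median of all genes moved from 0.02 to 0.12 on the log2 scale. At D1, 654 genes (6.89%) were higher and 617 (6.5%) lower with TGF-β, and at D20 1210 (12.8%) were higher and 1399 (14.7%) lower. Genes called on both days numbered 705, which is 55.5% of the genes called at D1 and 27% of those called at D20. Across all genes the responses of the 2 days, which share no library, had a Pearson r of 0.502 and a Spearman rho of 0.383, given as a description because genes are not independent. The call of a difference held in each of the 12 fits that left out 1 library for 490 of the 985 genes. The count of calls was 1706 without D1 replicate 2, 612 and 543 without D1+ TGF-β replicates 1 and 2, 615 and 549 without D20 replicates 2 and 3, and within 1.5 times 985 without any other library.

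By the 3 tests, 184 genes (1.94% of those tested) were early-only, that is called at D1, not called at D20, and with a called difference. Late-only genes, the mirror image, numbered 601 (6.33%). Without any 1 library, 79 early-only, 300 late-only and 67 reversed genes kept the call of the difference. Called on both days in the same direction without a called difference were 556 kept genes, 257 higher and 299 lower with TGF-β. For 486 of the 556 (87.4%), the 95% interval of the difference lay between −1 and 1 on the log2 scale. The median D1 response of kept genes was 0.71 for those higher and −0.69 for those lower. An interval of that width can therefore still hold the loss of a response. The difference was called for 66 genes with the same direction and a larger response at D20 and for 15 with a smaller one, and 68 genes were reversed, called on both days in opposite directions. A further 51 genes had a called difference and no called response. Genes called on 1 day without a called difference, 382 at D1 and 1303 at D20, cannot be placed, since missing the threshold on the other day does not show that the response differed. Of these, 322 and 1118 also had an interval between −1 and 1, so that interval does not set the kept genes apart. At the threshold lay THYN1, just inside with a difference of 0.63 (adjusted p = 0.00996), and ENSA, just outside with 0.40 (adjusted p = 0.01005).

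**Figure D1:**
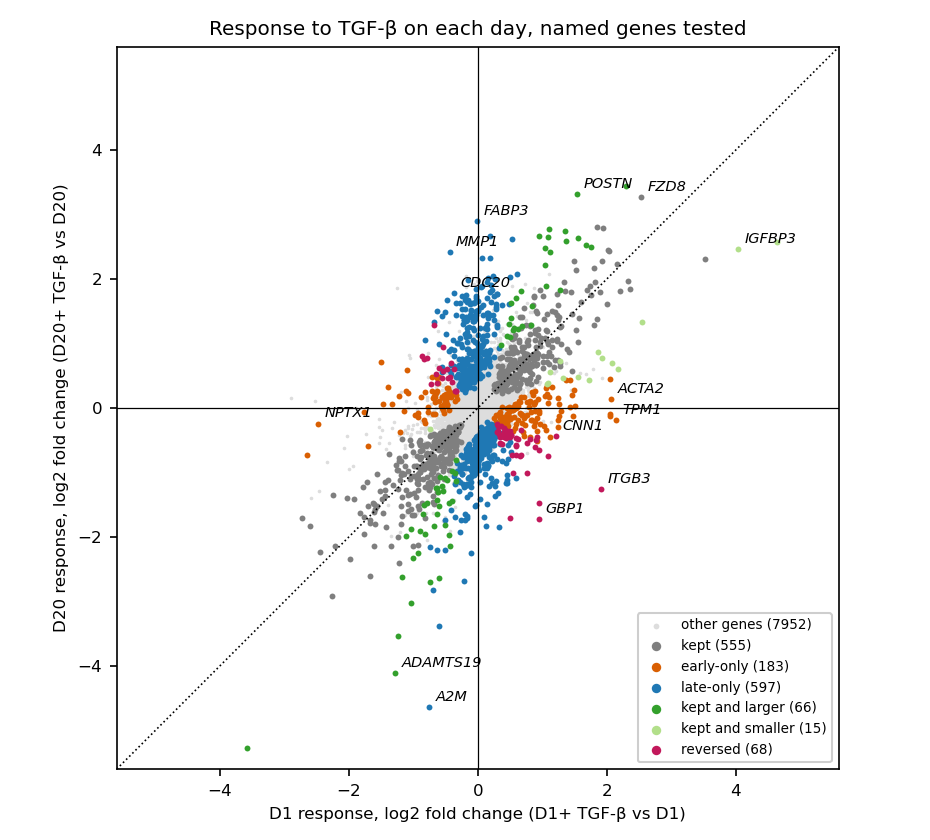
Log2 fold change with TGF-β at D20 (vertical axis) against that at D1 (horizontal axis), 1 point per gene with a symbol, coloured by class, with the number of genes with a symbol in the legend and a dotted line of equal response. Late-only genes such as MMP1 and A2M lie along the vertical axis, early-only genes such as TPM1 and ACTA2 along the horizontal axis, and reversed genes such as ITGB3 (1.91 at D1, −1.26 at D20) above the line at left or below it at right.

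Genes of smooth muscle contraction went from raised at D1 to lowered at D20 relative to untreated cells. Of 24 such genes, 20 were tested, and 11 were called higher and 1 lower at D1, against 0 higher and 13 lower at D20. The difference was called for 15 of the 20, each below 0, where 5.87% of all genes had a called difference below 0. The median response of the list was 0.42 at D1 and −0.45 at D20, beside −0.02 at D1 and 0.01 at D20 for all genes. Leaving out any 1 library left between 12 and 16 calls. Of the list, 4 genes were early-only, 4 late-only, 6 reversed and 1, FHL1, kept and larger.

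TPM1 (chromosome 15, 63334819 to 63364114, plus strand of GRCh37), which encodes a tropomyosin that lines actin filaments, had 339.9, 351 and 387 cpm at D1, 1634, 1701 and 1411 at D1+ TGF-β, 489, 522 and 524 at D20 and 429, 423 and 494 at D20+ TGF-β. Every D1+ TGF-β flask stood far above all other flasks, and the D20 and D20+ TGF-β flasks overlapped. Its log2 fold change was 2.14 at D1 and −0.19 at D20, a difference of −2.33 (standard error 0.13, adjusted p = 7.57e-07). α-Smooth muscle actin, the product of ACTA2 (chromosome 10, 90694831 to 90751096, minus strand) and the usual marker of myofibroblasts, showed the same form, with 225, 123 and 191 cpm at D1, 748, 835 and 679.9 at D1+ TGF-β, 272, 283 and 292 at D20 and 280.5, 297 and 351 at D20+ TGF-β. Here too the D1+ TGF-β flasks were separate from the rest and the flasks of the 2 D20 conditions overlapped. The response of ACTA2 was 2.07 at D1 and 0.13 at D20, a difference of −1.94 (standard error 0.24, adjusted p = 0.000123). These are RNA levels, and the paper's protein results went the other way. Its western blot had more α-smooth muscle actin with TGF-β at D20, and its staining found the protein in most treated cells at D20 and in none at D1. The cause of this contrast was not tested. CALD1, which encodes the actin and myosin binding protein caldesmon, was early-only as well, with 1.25 at D1, −0.19 at D20 and a difference of −1.44 (standard error 0.13, adjusted p = 1.31e-05). TAGLN, of the actin-binding protein SM22α, had a difference of −0.81 (standard error 0.19, adjusted p = 0.00842), called in 3 of the 12 fits without 1 library.

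CNN1 (chromosome 19, 11649582 to 11661138, plus strand), the gene of the smooth muscle calponin, was reversed, with 39.5, 30.5 and 41.4 cpm at D1, 83.5, 86.1 and 87.7 at D1+ TGF-β, 52.1, 52.4 and 52.6 at D20 and 36.2, 35.6 and 44.2 at D20+ TGF-β. The treated flasks lay above the untreated ones at D1 and below them at D20, without overlap on either day. Its response was 1.21 at D1 and −0.44 at D20, a difference of −1.65 (standard error 0.15, adjusted p = 1.33e-05). LMOD1, which encodes leiomodin, a nucleator of actin filaments, was late-only, with 48.2, 47.5 and 45.2 cpm at D1, 41.1, 45.6 and 44.4 at D1+ TGF-β, 105, 118 and 124 at D20 and 21.1, 24.5 and 28.5 at D20+ TGF-β. At D1 the flasks overlapped, and at D20 the untreated flasks had risen above every other flask while the treated ones had fallen below. Its difference was −2.14 (standard error 0.14, adjusted p = 1.7e-06). DMD, the gene of dystrophin, which ties actin to the cell membrane, was reversed with 0.94 at D1 and −1.48 at D20 and a difference of −2.42 (standard error 0.20, adjusted p = 5.8e-06).

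Focal adhesions, the complexes of integrins and adaptor proteins in which actin cables end, followed in part. Of 25 tested genes, 9 were higher and 0 lower at D1, 3 higher and 10 lower at D20, and the difference was called for 10, each below 0 (7 to 14 when 1 library was left out). ITGB3 (chromosome 17, 45331193 to 45391109, plus strand), which encodes the β3 integrin subunit, had 14.8, 22.8 and 11.1 cpm at D1, 57.8, 65.9 and 61.2 at D1+ TGF-β, 34.98, 40.3 and 46.01 at D20 and 18.5, 18.4 and 13.7 at D20+ TGF-β. Treated flasks stood above untreated ones at D1 and below them at D20, and the level of the D20+ TGF-β flasks overlapped that of the D1 flasks. Its response went from 1.91 to −1.26, and the difference of −3.17 (standard error 0.28, adjusted p = 9.78e-06) was the largest in size among the reversed genes that stayed called without any 1 library. FERMT2, the gene of the integrin activator kindlin-2, was reversed with 0.92 at D1 and −0.45 at D20 and a difference of −1.37 (standard error 0.12, adjusted p = 9.23e-06), and PHLDB2, which encodes a protein that docks microtubules beside adhesions, with 0.76 at D1 and −1.01 at D20 and a difference of −1.77 (standard error 0.16, adjusted p = 1.1e-05).

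The adaptor genes TNS1 (tensin) and VCL (vinculin) differed in the day of their response. TNS1 was early-only (1.25 at D1, 0.16 at D20), with a difference of −1.08 (standard error 0.12, adjusted p = 5.37e-05), and VCL was late-only (0.03 at D1, −0.69 at D20), with a difference of −0.73 (standard error 0.10, adjusted p = 0.000218). ITGB1, which encodes the β1 integrin subunit, was early-only with a difference of −0.57 (standard error 0.11, adjusted p = 0.00243), a call lost without D1+ TGF-β replicate 2 or D20 replicate 3. Of 7 markers of differentiated smooth muscle looked up, 4 passed the filter, CNN1, LMOD1, ACTG2 and SMTN. All 4 are also on the contractile list, so they are no separate evidence. The difference was called below 0 for 3 of them and not for SMTN. The SMTN flasks overlapped at D20, with 50.4 to 58.4 cpm untreated and 45.9 to 65.9 treated. The summed level of the 7 markers was 389 to 514 cpm at D1, 701 to 727 at D1+ TGF-β, 526 to 549 at D20 and 315 to 396 at D20+ TGF-β. ACTG2 was the largest part of the sum. The defining marker MYH11, of smooth muscle myosin, was at 0.251 to 1.17 cpm and DES, of desmin, at 0 to 0.699 cpm over all 12 flasks.

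**Figure D2:**
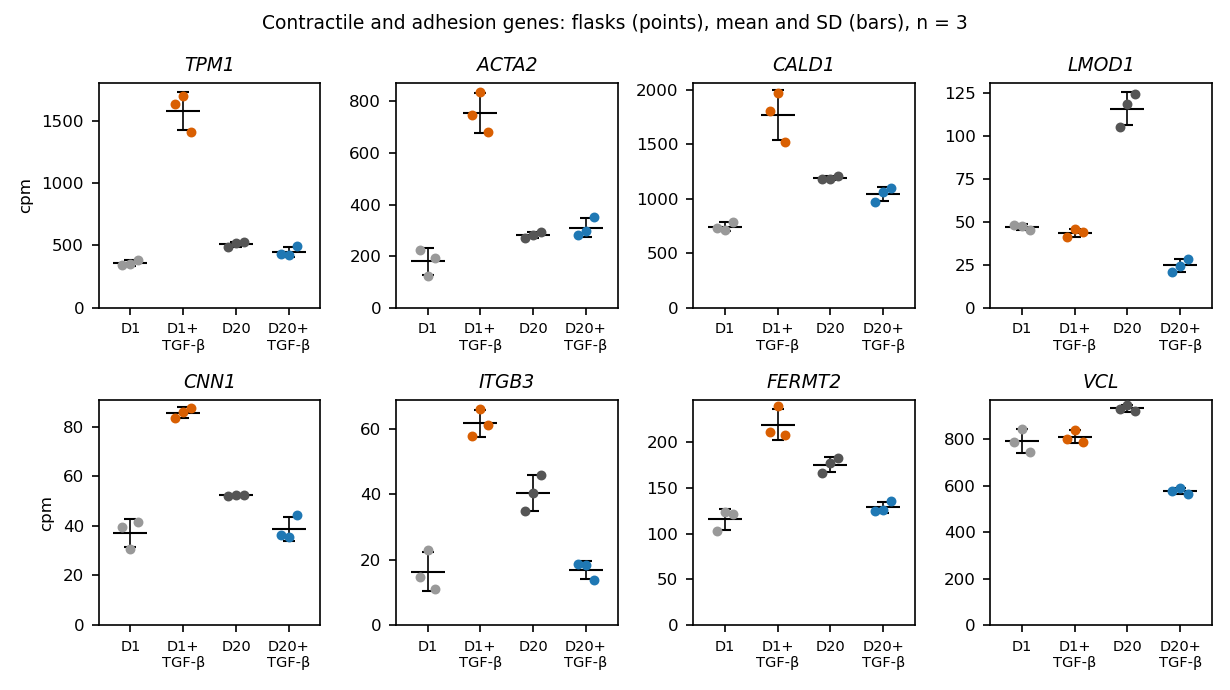
TMM-scaled cpm (vertical axes, from 0) of 8 contractile and adhesion genes in the 4 conditions (horizontal axes), with 1 point per flask, horizontal bars for the mean and error bars for the SD of 3 flasks. TPM1, ACTA2 and CALD1 peak at D1+ TGF-β, while LMOD1 and VCL are lowest at D20+ TGF-β, and CNN1, ITGB3 and FERMT2 change the order of treated and untreated flasks between the days.

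The reversed genes that rose at D1 and fell at D20 were 48 of the 68. Beside the genes above they held those of the calponins CNN2 and CNN3, the actinin ACTN1, the LIM proteins FHL2, PDLIM7, CSRP1, ZYX and TES, and the actin-binding VASP, listed here after their values had been seen. The CArG box, the site bound by serum response factor (SRF), a regulator of cytoskeletal genes, was looked for in their RefSeq promoters (GRCh38.p14, 250 bases before to 50 after the first listed start). It was found in 7 of 38 (18.4%) of these promoters, in 5 of 18 (27.8%) of the contractile list and in 87 of 7838 (1.11%) of all genes tested, and the motif was chosen after the classes had been seen. The early-only genes higher at D1 held it in 1 of 98 (1.02%), and kept genes higher with TGF-β in 5 of 211 (2.37%). The 7 reversed genes with the box were CNN2, ACTG2, FHL2, GBP1, PRKAB2, MPZL1 and RSU1. CNN2, ACTG2 and FHL2 are also on the contractile list, so the shares of the reversed genes and of that list overlap. The 250 bases before the start are shown for these 3 reversed genes with the box, 5′ to 3′ on the strand of the gene and with the box in capitals.
CNN2, chr19:1026358-1026607 (plus strand): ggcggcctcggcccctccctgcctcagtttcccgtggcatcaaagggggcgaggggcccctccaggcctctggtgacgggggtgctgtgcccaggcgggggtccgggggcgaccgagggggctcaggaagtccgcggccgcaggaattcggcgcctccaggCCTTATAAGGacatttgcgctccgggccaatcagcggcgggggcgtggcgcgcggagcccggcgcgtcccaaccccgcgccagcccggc
ACTG2, chr2:73892758-73893007 (plus strand): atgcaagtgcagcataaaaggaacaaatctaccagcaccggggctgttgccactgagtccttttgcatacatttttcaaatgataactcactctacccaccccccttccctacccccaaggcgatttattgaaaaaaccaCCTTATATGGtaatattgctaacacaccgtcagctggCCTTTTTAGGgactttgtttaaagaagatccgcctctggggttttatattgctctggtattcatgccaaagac
FHL2, chr2:105438514-105438763 (minus strand): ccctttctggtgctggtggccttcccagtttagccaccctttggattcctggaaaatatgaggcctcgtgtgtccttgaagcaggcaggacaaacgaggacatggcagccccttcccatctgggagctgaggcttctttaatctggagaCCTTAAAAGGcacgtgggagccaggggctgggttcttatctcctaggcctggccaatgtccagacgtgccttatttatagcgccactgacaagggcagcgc
The single box of CNN2 lay 79 bases before the start and that of FHL2 91 bases before it, while ACTG2 held 2 boxes, 100 and 63 bases away. CNN2 had 366, 341 and 316 cpm at D1, 450.1, 461 and 420.4 at D1+ TGF-β, 492, 498 and 504 at D20 and 324, 331 and 356 at D20+ TGF-β, and FHL2 had 156, 108 and 155 cpm at D1, 259, 264 and 260.1 at D1+ TGF-β, 241, 271 and 268 at D20 and 173, 188 and 192 at D20+ TGF-β. In both, every treated flask was above every untreated flask at D1 and below it at D20. The differences were −0.94 (standard error 0.10, adjusted p = 5.42e-05) for CNN2, −1.40 (standard error 0.16, adjusted p = 8.42e-05) for FHL2 and −1.29 (standard error 0.17, adjusted p = 0.000249) for ACTG2, which encodes an actin so like α-smooth muscle actin that reads of the pair may have been exchanged.

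Among 25 tested genes of SMAD signalling and its feedback, 2 had a called difference above 0 and 6 below 0 (32%, against 10.4% of all genes). The inhibitor gene SMURF2, whose product marks SMADs and receptors for degradation, was reversed, with 436, 374 and 437 cpm at D1, 607, 627 and 584 at D1+ TGF-β, 510.3, 489.8 and 493 at D20 and 225, 221 and 295 at D20+ TGF-β. Its treated flasks lay above the untreated ones at D1 and below every other flask at D20. The response was 0.55 at D1 and −1.01 at D20, a difference of −1.56 (standard error 0.15, adjusted p = 1.79e-05). The ligand gene TGFB2 was late-only, with 9.46, 19.3 and 7.61 cpm at D1, 13.8, 15.4 and 17.3 at D1+ TGF-β, 66.3, 73.1 and 72.3 at D20 and 19.1, 21.6 and 18.7 at D20+ TGF-β. In untreated flasks it was higher at D20 than in any D1 flask, and the treated D20 flasks stayed near the levels of D1. TGFB2 had a difference of −2.16 (standard error 0.33, adjusted p = 0.000616), and the co-receptor gene ENG one of −0.88 (standard error 0.14, adjusted p = 0.000748), late-only as well.

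Kept members included SMAD3, one of the 2 SMADs the receptors act on, with a response of −1.43 at D1 and −1.84 at D20, and SKIL and PMEPA1, feedback inhibitors of the pathway, with responses for SKIL of 1.42 at D1 and 0.87 at D20 and for PMEPA1 of 1.26 at D1 and 1.41 at D20. The 95% interval of the difference was −0.92 to 0.09 for SMAD3 and −0.49 to 0.80 for PMEPA1. SMAD2 and the inhibitory SMAD7 had no called response on either day, and their differences were −0.21 (adjusted p = 0.106) and −0.71 (adjusted p = 0.251). TGFBI, a secreted matrix protein named for its induction by TGF-β, was early-only with 1.29 at D1 and −0.05 at D20 and a difference of −1.34 (standard error 0.19, adjusted p = 0.000347).

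For TGFBI the untreated flasks rose between the days, from 1646, 1807 and 1254 to 3119, 3474 and 3239 cpm, and the treated flasks stood at 3798, 3864 and 3855 and 3416, 3519 and 2578 cpm. FSTL1, a secreted binding protein of the related BMP pathway, had the same form, with 0.92 at D1 and −0.16 at D20 and a difference of −1.08 (standard error 0.14, adjusted p = 0.000205). Of 16 tested BMP genes, FSTL1 and the receptor gene BMPR2 had a called difference (12.5%, near the 10.4% of all genes), and between 1 and 4 genes did without 1 library. Targets of YAP and TEAD, factors that respond to cell shape and density, had 7 called differences among 20 genes (35%, against 10.4% of all genes), each below 0. They included the early-only TEAD cofactor gene VGLL3 (1.11 at D1, −0.45 at D20), the reversed TEAD3 (0.35 at D1, −0.28 at D20), and the late-only CRIM1 (0.12 at D1, −0.92 at D20), a transmembrane regulator of BMP, and F3 (0.14 at D1, −1.49 at D20), which encodes tissue factor, the starter of blood clotting.

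Matrix genes were spread over the classes. Of 20 collagen genes, 5 were kept, COL1A1 among them with 1.09 at D1 and 0.99 at D20. A difference was called for 2 (10%, near the 10.4% of all genes), COL15A1 and COL5A1, or 5 genes without D1 replicate 2. COL15A1, which encodes a collagen of basement membrane zones, had 9.29, 14.7 and 7.95 cpm at D1, 12.2, 11.3 and 10.5 at D1+ TGF-β, 8.67, 8.13 and 6.62 at D20 and 33.5, 41.4 and 42.7 at D20+ TGF-β. The D20+ TGF-β flasks were above all others, and the D1 flasks overlapped those of D1+ TGF-β and of D20. The response went from 0.07 to 2.33, a difference of 2.27 (standard error 0.27, adjusted p = 0.000113). COL5A1, the gene of a chain that sets the width of collagen fibrils, was kept and smaller (1.87 at D1, 0.87 at D20), with a difference of −1.002 (standard error 0.18, adjusted p = 0.00189). Of 19 genes of collagen processing, 7 had a difference below 0 and 1 above it. The prolyl hydroxylase genes P4HA2 (1.08 at D1, 0.38 at D20) and P3H2 (−0.51 at D1, −2.21 at D20) and the cross-linking oxidase genes LOXL4 (1.02 at D1, −0.29 at D20) and LOXL2 (0.16 at D1, −0.47 at D20) were among the former.

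FN1, the gene of fibronectin, was kept with 1.34 at D1 and 1.95 at D20, an interval of the difference of 0.22 to 1.01 and an adjusted p of 0.0285. Its flasks held 11230.2, 8982 and 8183 cpm at D1, 23759, 24587 and 23450.0 at D1+ TGF-β, 6842, 7032 and 7532 at D20 and 23270.0, 27535 and 32178 at D20+ TGF-β, and on both days every treated flask was above every untreated one. Periostin (POSTN, chromosome 13, 38136720 to 38172981, minus strand), a matrix protein of healing and fibrotic tissue, was kept and larger, with 193, 89.04 and 189 cpm at D1, 476, 504 and 389 at D1+ TGF-β, 269.8, 237 and 231 at D20 and 2188, 2397 and 2777 at D20+ TGF-β. Treated flasks were above untreated ones on both days, and those of D20 stood apart from all others. The response was 1.54 at D1 and 3.32 at D20, a difference of 1.78 (standard error 0.31, adjusted p = 0.00150), and the thrombospondin gene THBS2 grew likewise, from 1.55 to 2.64 with a difference of 1.09 (standard error 0.14, adjusted p = 0.000175).

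SPARC, which encodes a collagen-binding protein, was early-only (1.09 at D1, 0.07 at D20), with a difference of −1.01 (standard error 0.10, adjusted p = 3.35e-05). The laminin chains parted at D20, since LAMA1 was called higher (0.08 at D1, 1.11 at D20) and LAMA4 lower (−0.35 at D1, −1.69 at D20), with differences of 1.04 (standard error 0.15, adjusted p = 0.000431) and −1.34 (standard error 0.18, adjusted p = 0.000297). Of all 29 matrix glycoprotein genes tested, 4 had a called difference above 0 and 7 below it. XYLT1, whose enzyme starts the sugar chains of proteoglycans, was kept and smaller (2.08 at D1, 0.71 at D20), with a difference of −1.38 (standard error 0.16, adjusted p = 0.00011). DSP, the gene of the junction protein desmoplakin, was kept with 1.46 at D1 and 1.47 at D20 and an interval of the difference of −0.76 to 0.78.

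Proteases and their inhibitors held large differences in both directions. MMP1 (chromosome 11, 102660132 to 102668891, minus strand), the gene of interstitial collagenase, had 423, 787 and 563 cpm at D1, 439, 449 and 421 at D1+ TGF-β, 281, 219 and 179 at D20 and 1192, 919 and 1509.6 at D20+ TGF-β. At D1 the treated flasks overlapped the untreated ones, and at D20 the treated flasks were above every other flask while the untreated ones were below. The response was −0.44 at D1 and 2.42 at D20, a difference of 2.85 (standard error 0.31, adjusted p = 5.37e-05). A2M (chromosome 12, 9220260 to 9268825, minus strand), which encodes α2-macroglobulin, a broad protease trap, had 184, 259 and 109.6 cpm at D1, 94.3, 118 and 116 at D1+ TGF-β, 448, 515 and 476 at D20 and 21.9, 25.8 and 9.96 at D20+ TGF-β. The order was the opposite of that of MMP1, with the untreated D20 flasks highest and the treated ones lowest. Its response was −0.75 at D1 and −4.63 at D20, a difference of −3.88 (standard error 0.41, adjusted p = 4.69e-05).

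Of the 25 tested genes of this kind, 3 had a called difference above 0 and 9 below it, 48% in all. ADAMTS19, a secreted metalloprotease gene, was kept and larger, from −1.28 to −4.11, with a difference of −2.83 (standard error 0.28, adjusted p = 2.73e-05). In its untreated flasks the level went from 43.4, 25.98 and 33.4 cpm at D1 to 263, 277 and 285 at D20, and in the treated flasks it was 13.4, 12.8 and 16.4 and 16.1, 20.8 and 11.1 cpm. ADAM12, which encodes a membrane metalloprotease, was early-only (2.05 at D1, −0.10 at D20), and ADAMTS1 (−0.63 at D1, −2.20 at D20) and SERPING1, the gene of the complement C1 inhibitor (−0.22 at D1, −2.68 at D20), were late-only. TIMP1, a metalloprotease inhibitor gene, had a difference of 0.44 that was not called (adjusted p = 0.154).

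Mitosis genes had the highest share of called differences of the 33 lists (84.2%). All 38 were tested, 0 were higher and 1 lower with TGF-β at D1, and 36 were higher and 0 lower at D20. The difference was called for 32, each above 0, against 4.51% of all genes, and the count was between 22 and 33 when 1 library was left out. The lowest count, 22, came without D1+ TGF-β replicate 2 or without D20 replicate 3. Over time the level fell in 38 of 38 genes without TGF-β, where 17.6% of all genes fell, and in 36 with it, where 17.7% did. The median change over time was −2.84 without and −1.24 with TGF-β on the log2 scale, so the higher levels of treated cells at D20 were those of a smaller fall and not of a rise.

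CDC20 (chromosome 1, 43824652 to 43828874, plus strand), which activates the complex that starts anaphase, had 68.9, 85.7 and 69.1 cpm at D1, 59.7, 53.9 and 59.7 at D1+ TGF-β, 8.01, 9.17 and 7.28 at D20 and 27.5, 21.6 and 35.04 at D20+ TGF-β. The treated flasks were below the untreated ones at D1, where the response of −0.37 was not called, and above them at D20, and every D20 flask was below every D1 flask. Its D20 response was 1.79 and the difference 2.16 (standard error 0.22, adjusted p = 2.85e-05). HJURP, the gene of the chaperone that loads the centromere histone, had 43.1, 50.8 and 48.01 cpm at D1, 47.2, 45.4 and 46.6 at D1+ TGF-β, 5.24, 4.40 and 3.55 at D20 and 13.8, 12.01 and 21.04 at D20+ TGF-β. At D1 its flasks overlapped, and at D20 the treated flasks lay above the untreated ones and below all of D1. The difference was 1.88 (standard error 0.25, adjusted p = 0.000214), beside 1.90 (standard error 0.23, adjusted p = 0.000103) for BIRC5, which encodes survivin of the chromosomal passenger complex, and 1.97 (standard error 0.23, adjusted p = 9.19e-05) for KIF20A, a kinesin gene of late mitosis. KIF20A was the one reversed gene of the list (−0.68 at D1, 1.29 at D20).

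DNA replication genes moved less. Of 26 tested, 10 were higher with TGF-β at D20, 1 lower at D1, and 4 had a called difference, each above 0. That count was 2 without D1 replicate 3 or without any 1 library of D1+ TGF-β or D20, and 2 with the replicate number as a block. MCM7, a subunit of the replicative helicase, was late-only (−0.04 at D1, 0.89 at D20), with a difference of 0.94 (standard error 0.16, adjusted p = 0.00111), and TYMS, the gene of thymidylate synthase, early-only (−0.48 at D1, 0.31 at D20), with a difference of 0.79 (standard error 0.13, adjusted p = 0.000869). All 26 fell over time both without and with TGF-β. CDKN2B, which encodes the CDK inhibitor p15 and is known as a target of TGF-β, moved with the treatment on both days and had 18.9, 18.5 and 19.5 cpm at D1, 38.2, 36.4 and 49.4 at D1+ TGF-β, 14.1, 16.5 and 14.6 at D20 and 88.9, 92.7 and 60.2 at D20+ TGF-β. Its treated flasks were above the untreated ones on both days and highest at D20, the response was 1.12 at D1 and 2.42 at D20 and the difference 1.30 (standard error 0.22, adjusted p = 0.00131). Among the 20 tested genes of growth arrest, 2 had a called difference above 0 and 2 below it. Without 1 library between 1 and 6 were called, the most without D1 replicate 2, and 2 or fewer without D1 replicate 3 or without any 1 library of D1+ TGF-β, of D20, or of D20+ TGF-β other than replicate 3.

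The promoters of the mitosis list were searched for TTTGAA, the core of the cell cycle homology region (CHR), and for CCAAT, the site of NF-Y, both on either strand. TTTGAA was found in 24 of 33 (72.7%) of the promoters of the list, in 60 of 244 (24.6%) of late-only genes higher at D20, in 23 of 248 (9.27%) of late-only genes lower at D20 and in 751 of 7838 (9.58%) of all genes. Of the 38 mitosis genes, 31 were late-only and higher at D20, so the shares of the list and of that class overlap. CCAAT was found in 25 of 33 (75.8%) of the list and in 2890 of 7838 (36.9%) of all genes. The 250 bases before the start are shown for CDC20, HJURP and the cyclin gene CCNB2, picked from the list after the search, with every match to TTTGAA and CCAAT or their complements TTCAAA and ATTGG in capitals.
CDC20, chr1:43358731-43358980 (plus strand): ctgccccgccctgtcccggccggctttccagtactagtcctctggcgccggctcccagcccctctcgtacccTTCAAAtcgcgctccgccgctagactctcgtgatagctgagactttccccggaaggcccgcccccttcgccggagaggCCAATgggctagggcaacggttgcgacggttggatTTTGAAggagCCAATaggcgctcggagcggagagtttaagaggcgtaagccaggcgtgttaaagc
HJURP, chr2:233854536-233854785 (minus strand): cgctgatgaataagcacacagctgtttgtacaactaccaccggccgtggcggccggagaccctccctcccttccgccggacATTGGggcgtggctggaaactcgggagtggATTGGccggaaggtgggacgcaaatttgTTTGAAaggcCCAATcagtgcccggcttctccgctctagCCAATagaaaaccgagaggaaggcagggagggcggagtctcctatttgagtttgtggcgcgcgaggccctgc
CCNB2, chr15:59104896-59105145 (plus strand): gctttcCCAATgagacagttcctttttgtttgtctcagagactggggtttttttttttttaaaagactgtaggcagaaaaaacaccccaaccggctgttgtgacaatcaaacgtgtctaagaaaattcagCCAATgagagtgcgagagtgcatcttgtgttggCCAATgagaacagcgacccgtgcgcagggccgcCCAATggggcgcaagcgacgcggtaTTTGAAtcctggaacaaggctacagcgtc
In CDC20 the TTTGAA nearest the gene lay 59 bases before the start between 2 CCAAT, in HJURP it lay 105 bases before it with 4 CCAAT or ATTGG, and in CCNB2 23 bases before it with 4 CCAAT before it. CCNB2 had a difference of 1.44 (standard error 0.24, adjusted p = 0.00120).

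Cholesterol synthesis genes were called higher with TGF-β at D20 in 21 of 23 and at D1 in 2, with median responses of 0.21 at D1 and 1.07 at D20. The difference was called for 8, each above 0, and this count rested on single libraries. It was 22 without D1 replicate 2 and between 1 and 8 without any other 1 library, the lowest being without D1+ TGF-β replicate 2 or D20 replicate 2. INSIG1, whose product holds the cholesterol sensor in the endoplasmic reticulum, had 119, 73.96 and 133 cpm at D1, 167, 161 and 169 at D1+ TGF-β, 84.6, 85.9 and 88.4 at D20 and 388, 384 and 319 at D20+ TGF-β. D1 replicate 2 was lower than the other D1 flasks, and on both days the treated flasks were above the untreated ones. Its response was 0.61 at D1 and 2.07 at D20, of which the first was not called, and the difference was 1.46 (standard error 0.22, adjusted p = 0.000594).

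Some genes of fatty acid synthesis and transport had the same late form. FASN, the gene of fatty acid synthase, had 468, 277 and 382 cpm at D1, 374, 346 and 390.3 at D1+ TGF-β, 211, 212 and 210.2 at D20 and 584, 624 and 582 at D20+ TGF-β. At D1 the flasks overlapped, and at D20 the treated flasks were above all others and the untreated ones below all others. The response was −0.02 at D1 and 1.5 at D20, a difference of 1.52 (standard error 0.19, adjusted p = 0.000167). FABP3, which encodes a fatty acid carrier, had 30.4, 13.1 and 31.5 cpm at D1, 27.5, 21.7 and 25.03 at D1+ TGF-β, 7.15, 8.87 and 8.12 at D20 and 50.05, 53.01 and 78.3 at D20+ TGF-β. Its D1 flasks spread widely, with replicate 2 lowest, and the D20+ TGF-β flasks were above all others. FABP3 had a difference of 2.91 (standard error 0.39, adjusted p = 0.00024), the largest above 0 among the late-only genes that stayed called without any 1 library, and the desaturase genes FADS1 and FADS2 had differences of 1.82 (standard error 0.20, adjusted p = 6.88e-05) and 1.19 (standard error 0.22, adjusted p = 0.00203). Of the 23 lipid genes tested, 5 had a called difference above 0 and 1 below it. At D20, 9 of the 23 were called higher and 9 lower with TGF-β, and the median D20 response was −0.05.

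**Figure D3:**
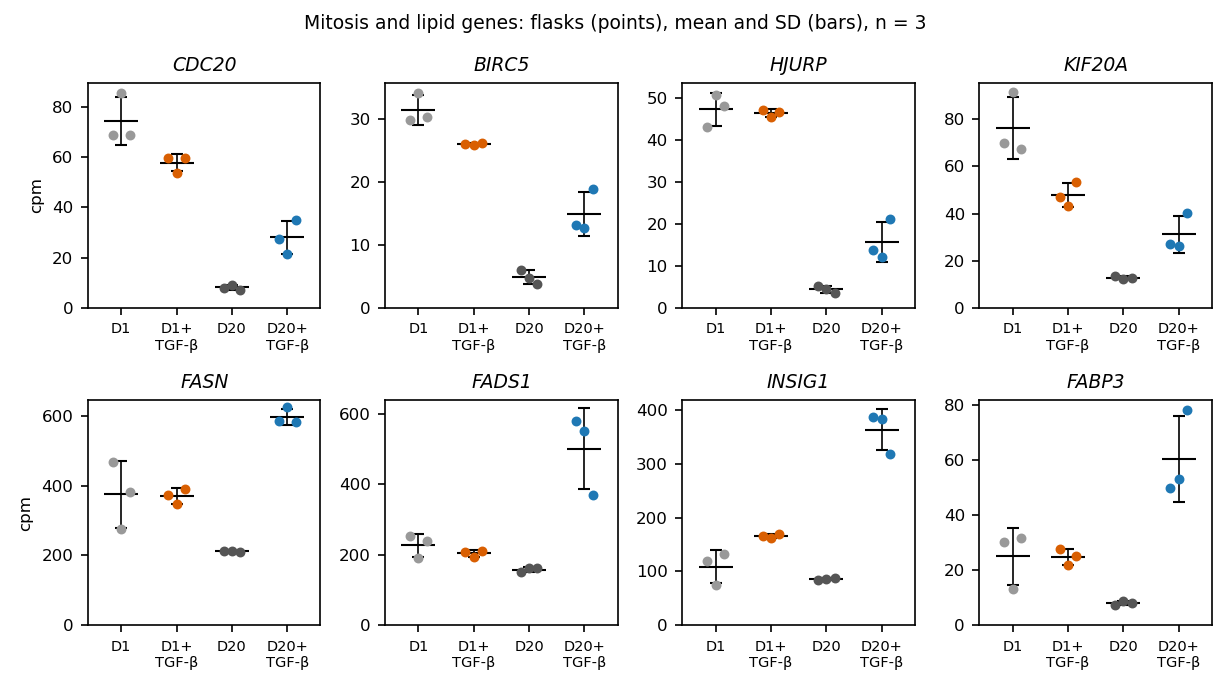
TMM-scaled cpm (vertical axes, from 0) of 4 mitosis genes (upper row) and 4 lipid genes (lower row) in the 4 conditions (horizontal axes), with 1 point per flask, horizontal bars for the mean and error bars for the SD of 3 flasks. The mitosis genes are lowest in the D20 flasks and lie between D20 and D1 at D20+ TGF-β, and the lipid genes are highest at D20+ TGF-β.

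Interferon-stimulated genes were lower with TGF-β on both days, in 7 of 19 tested genes at D1 and in 13 at D20, and 6 had a called difference, each below 0. That count was 3 without D1+ TGF-β replicate 1 or 2, D20 replicate 2 or 3, or D20+ TGF-β replicate 1. Of 38 listed genes, 19 passed the gene filter. With filterByExpr, another filter (32 tested), or with no filter (38 tested), 6 were called below 0 and 2 above it. Over time 17 of the 19 rose without TGF-β and 11 with it, where 18.9% and 17.2% of all genes rose. GBP1, which encodes an interferon-induced GTPase, was reversed, with 30.2, 40.7 and 28.2 cpm at D1, 60.6, 72.1 and 58.8 at D1+ TGF-β, 71.4, 72.9 and 75.1 at D20 and 19.9, 21.2 and 25.9 at D20+ TGF-β. At D1 the treated flasks were above the untreated ones, and at D20 they were below every other flask. Its response was 0.95 at D1 and −1.72 at D20, a difference of −2.67 (standard error 0.19, adjusted p = 2.43e-06). The late-only genes SAMD9L, of an antiviral protein, and DDX58, of the RNA sensor RIG-I, had differences of −1.01 (standard error 0.12, adjusted p = 0.000124) and −0.96 (standard error 0.12, adjusted p = 0.000126), while IFIT1 and IFIT3 were kept (−1.70 at D1, −1.52 at D20 and −0.77 at D1, −0.74 at D20).

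Of 12 genes of MHC class I presentation, 3 were lower at D1 and 11 at D20, and the difference was called for 3, each below 0. That count was 0 without replicate 1 or 2 of D1+ TGF-β, 2 or 3 of D20, or 2 of D20+ TGF-β, and 1 without D1 replicate 3 or D1+ TGF-β replicate 3. The interferon factor motif TTTCNNTTT was found in 12 of 16 (75%) of the promoters of the interferon list, in 6 of 9 (66.7%) of the MHC list and in 527 of 7838 (6.72%) of all genes. In the classes it was found in 8.06% of late-only genes lower at D20 and in 11.4% of kept genes lower with TGF-β. The 5 other motifs searched were CACGTG (E-box), TGACTCA (AP-1), TCACNCCAC (SREBP), CAGACA (SMAD) and CATTCC (TEAD), present in 10.9, 2.77, 1.08, 11.7 and 10.7% of all promoters. CACGTG was in 18.9% of late-only genes higher at D20 and 6.05% of those lower, and CAGACA in 11.8% of early-only, 12.4% of late-only and 15.6% of kept genes. In the smaller classes CAGACA was in 11 of 53 (20.8%) kept and larger, 5 of 13 (38.5%) kept and smaller and 6 of 53 (11.3%) reversed genes.

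Amino acid supply had the most kept genes of the 33 lists. Of 32 tested genes of serine, glycine and asparagine synthesis, amino acid transport and tRNA charging, 21 were higher with TGF-β at D1 and 25 at D20, 16 were kept and 4 kept and larger. A difference was called for 6 of them, and for between 2 and 12 without 1 library, the most without D1 replicate 2. ASNS, the gene of asparagine synthetase, had 31.2, 15.6 and 28.2 cpm at D1, 110.5, 110.3 and 112 at D1+ TGF-β, 19.2, 21.9 and 23.9 at D20 and 89.4, 78.05 and 139 at D20+ TGF-β. The treated flasks of each day were above all untreated flasks, and the response was 2.16 at D1 and 2.23 at D20, with an interval of the difference of −0.63 to 0.76. TRIB3, which encodes a pseudokinase induced by ATF4, was kept and larger (1.04 at D1, 2.49 at D20), and so was the glutamine transporter gene SLC38A5, whose response went from 0.95 to 2.67, a difference of 1.71 (standard error 0.21, adjusted p = 0.000134). WARS, the gene of the tRNA synthetase for tryptophan, was late-only in the other direction (−0.07 at D1, −0.92 at D20), with a difference of −0.85 (standard error 0.13, adjusted p = 0.000518).

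Of 27 genes of folding and secretion, 17 were higher at D1 and 15 at D20, and 11 were kept. The difference was called above 0 for 1 of the 27 and below 0 for 4 (18.5% in all, against 10.4% of all genes), with a median of −0.01. Those below 0 included genes of traffic between the endoplasmic reticulum and the Golgi. The reversed KDELR2 had −0.81 (standard error 0.10, adjusted p = 0.000126) and the early-only KDELR3 −0.58 (standard error 0.10, adjusted p = 0.00112), both of retrieval receptors. The late-only SEC31A, of a vesicle coat, had −0.50 (standard error 0.08, adjusted p = 0.00116). Ranked by the smaller of their 2 responses, the first kept genes were FZD8, a Wnt receptor gene (2.54 at D1, 3.27 at D20), AMIGO2, of a membrane adhesion protein (3.53 at D1, 2.31 at D20), and ASNS among those that rose. Among those that fell they were ANKRD33B (−2.26 at D1, −2.92 at D20), CEMIP, of a protein that degrades hyaluronan (−2.44 at D1, −2.24 at D20), and the thromboxane synthase gene TBXAS1 (−2.22 at D1, −2.14 at D20). The intervals of the differences of FZD8, AMIGO2, ANKRD33B, CEMIP and TBXAS1 were 0.19 to 1.27, −1.98 to −0.46, −1.06 to −0.25, −1.32 to 1.72 and −0.92 to 1.07, each reaching past 1 or −1 on the log2 scale. Those of FZD8, AMIGO2 and ANKRD33B leave out 0, so for these genes kept means only that the difference missed the adjusted threshold, not that the response was unchanged.

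Antioxidant genes had 5 called differences among 22 tested genes (22.7%, against 10.4% of all genes), each below 0. Without D20+ TGF-β replicate 3, 6 were called below and 2 above 0. GPX3, the gene of the secreted glutathione peroxidase, had 18.7, 13.6 and 13.5 cpm at D1, 8.71, 9.98 and 11.3 at D1+ TGF-β, 61.5, 80.2 and 68.1 at D20 and 8.31, 6.97 and 4.23 at D20+ TGF-β. Untreated flasks were higher at D20 than at D1, and the D20+ TGF-β flasks were the lowest. The difference was −2.79 (standard error 0.28, adjusted p = 2.85e-05), with −0.97 (standard error 0.14, adjusted p = 0.000323) for PRDX6 and −0.68 (standard error 0.10, adjusted p = 0.000451) for PRDX1, which encode peroxiredoxins, and −0.87 (standard error 0.12, adjusted p = 0.000309) for the early-only MSRB3, of a methionine sulfoxide reductase. In the list of glucose sensing and glycolysis, 2 of 26 tested genes had a difference above 0 and 3 below it, 5 in all and between 2 and 8 without 1 library, the most without D1 replicate 2. ARRDC4, which encodes an arrestin that lowers glucose uptake, was kept and larger (−1.03 at D1, −3.02 at D20), with a difference of −1.99 (standard error 0.14, adjusted p = 2.43e-06). BPGM, of an enzyme beside glycolysis, was kept and smaller (1.73 at D1, 0.44 at D20).

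Ligands and receptors of other pathways were spread over the classes. Of 20 growth factor genes, 20% had a called difference, against 10.4% of all genes. It was above 0 for 1, VEGFB (−0.19 at D1, 0.73 at D20), and below 0 for 3, the reversed FGF1 (1.08 at D1, −0.75 at D20), the kept and larger KITLG (−0.59 at D1, −1.51 at D20) and ERRFI1, of an inhibitor of the EGF receptor (0.81 at D1, 0.10 at D20). FGF1 had 13.5, 15.01 and 16.1 cpm at D1, 28.2, 31.7 and 34.6 at D1+ TGF-β, 16.1, 15.7 and 14.97 at D20 and 6.57, 8.58 and 13.3 at D20+ TGF-β, and its treated flasks were above the untreated ones at D1 and below them at D20. Its difference was −1.83 (standard error 0.26, adjusted p = 0.000337). In the IGF axis the binding protein gene IGFBP3 had 26.2, 12.7 and 26.3 cpm at D1, 335, 425 and 296 at D1+ TGF-β, 31.3, 30.7 and 33.3 at D20 and 163, 187 and 176 at D20+ TGF-β. Treated flasks were above untreated ones on both days and highest at D1, and the response went from 4.04 to 2.46, a difference of −1.57 (standard error 0.29, adjusted p = 0.00194). The receptor substrate genes IRS1 (−0.24 at D1, 0.30 at D20) and IRS2 (−0.07 at D1, 0.82 at D20) were late-only, and 2 of the 15 genes of the axis had a difference above 0 and 2 below it.

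Wnt and Notch genes had 1 called difference above 0 and 6 below it among 21, 7 in all and between 3 and 9 without 1 library. The ligand gene WNT5B was reversed (0.60 at D1, −0.58 at D20), the receptor gene FZD4 late-only (0.47 at D1, −0.79 at D20) and the Notch ligand gene JAG1 kept and larger (−0.93 at D1, −2.25 at D20). The glycoprotein gene RELN and the cytokine receptor gene LIFR also fell further at D20, with differences of −2.03 (standard error 0.17, adjusted p = 5.89e-06) and −1.70 (standard error 0.14, adjusted p = 7.77e-06), and the cell adhesion gene NTM rose further, with 1.40 (standard error 0.12, adjusted p = 9.23e-06). The kinase gene NUAK1 was kept and smaller (2.18 at D1, 0.60 at D20), with a difference of −1.58 (standard error 0.12, adjusted p = 3.63e-06). NPTX1, of a neuronal pentraxin, was the early-only gene with the largest fall at D1 among those named by the rule, with −2.47 at D1 and −0.24 at D20. The others of that kind were NOV, of a CCN family protein (−1.40 at D1, 0.33 at D20), the cytokine gene IL16 (−1.10 at D1, 0.59 at D20) and AVPI1 (−1.12 at D1, 0.27 at D20). FAM43A was reversed from lower to higher (−0.87 at D1, 0.80 at D20), and FAM129A was late-only (0.20 at D1, 2.67 at D20).

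The remaining lists had 3 or fewer called differences each, from 0 to 20% of their tested genes, against 10.4% of all genes. Immediate early genes had 3 among 21 (14.3%), each above 0, with JUND, of an AP-1 subunit, at 0.97 (standard error 0.14, adjusted p = 0.000358). Without 1 library between 1 and 6 of them were called, the most without D20+ TGF-β replicate 3 or D1 replicate 2, and in the latter fit 2 were below 0, while 1 was called without D20 replicate 3, D20+ TGF-β replicate 1 or D1+ TGF-β replicate 2. Ribosome biogenesis genes were higher with TGF-β at D20 in 20 of 27, with 2 called differences (10 without D1 replicate 2, and 1 without replicate 2 or 3 of D1+ TGF-β or of D20), of which RRS1 had 1.27 (standard error 0.14, adjusted p = 7.79e-05). For cytosolic ribosomal proteins 1 of 31 was called, and without D1 replicate 2 26 were. Lysosomal genes had 1 above 0, the protease gene CTSK with a D20 response of 1.51, and 1 below it, the protease gene CTSC (−0.28 at D1, −1.93 at D20), among 26, with 4 calls without D1 replicate 2.

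Transcription factors of mesenchyme and lung had 1 above and 1 below 0 among 21, the latter ZEB1 (0.17 at D1, −0.65 at D20), and between 1 and 4 calls without 1 library. The glucocorticoid and clock genes had 1 of 17, ERRFI1, or 3 without D20+ TGF-β replicate 3, and the receptor gene NR3C1 had responses of 0.45 at D1 and 0.43 at D20, with an interval of the difference of −0.37 to 0.34. Channel genes had 2 of 10 below 0 (20%), and receptors of contractile agonists and bronchodilators 1 above and 1 below 0 of 18 (11.1%). No channel gene was called with the replicate number as a block or without replicate 3 of D1, 1 or 3 of D20, 1 or 2 of D20+ TGF-β, or any 1 library of D1+ TGF-β, and 1 was without D20 replicate 2. Receptor calls were between 0 and 5 without 1 library, the most without D20+ TGF-β replicate 3 and the fewest without D20 replicate 3. None was called by edgeR at an adjusted p under 0.01 among 31 genes of oxidative phosphorylation or 13 of cytokines and NF-κB, where, by edgeR, 2 and 5 had an unadjusted p under 0.05 and DESeq2 called 1, below 0, and 0. Without D20+ TGF-β replicate 3, 6 of the cytokine and NF-κB genes were called, each above 0, and without D1 replicate 2, 1 gene of oxidative phosphorylation was. The cytokine and NF-κB count also depended on the gene filter, which 13 of the 33 listed genes passed. With filterByExpr 26 were tested, and 2 were called above and 1 below 0. With no gene filter 33 were tested, and 6 were called above and 1 below 0. CSNK2B and RHEB, of a kinase subunit and a GTPase, had differences of −0.09 (adjusted p = 0.596) and 0.03 (adjusted p = 0.903).

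**Figure D4:**
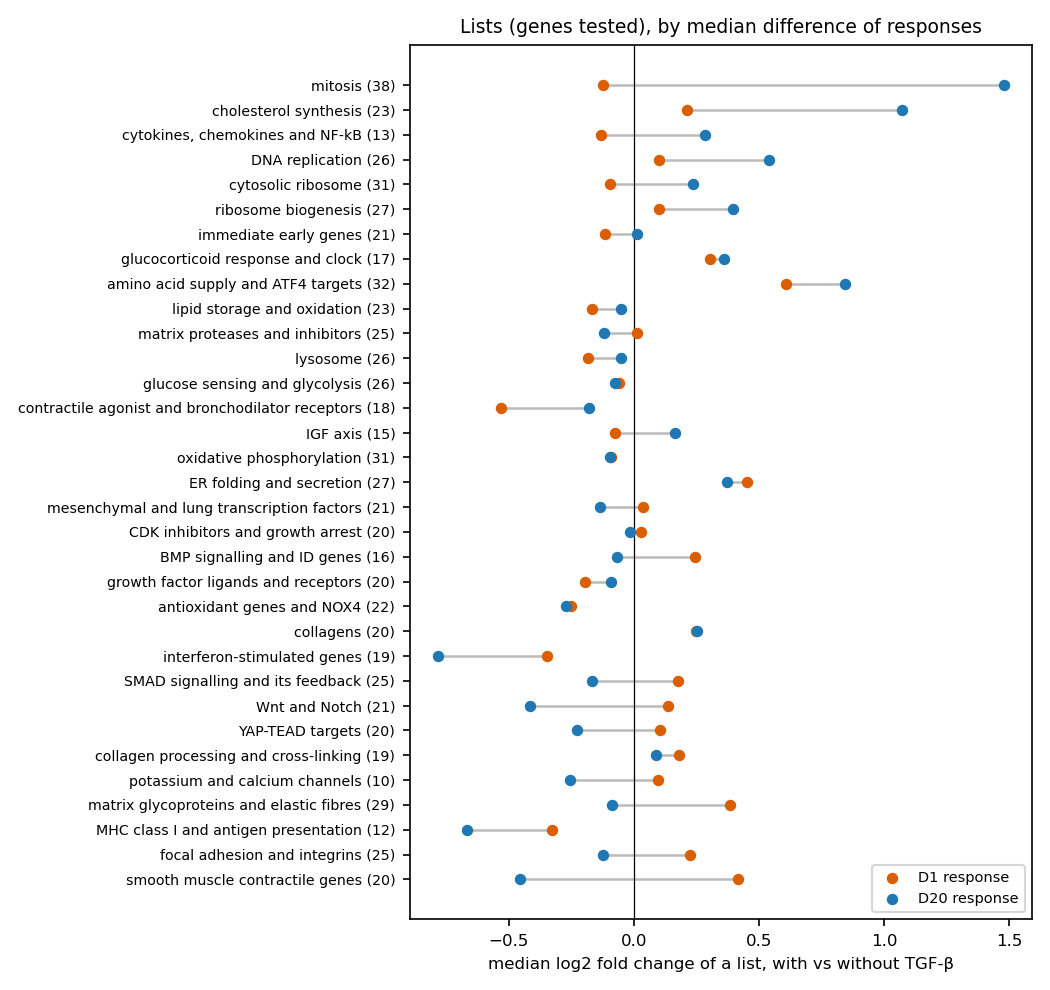
Median log2 fold change with TGF-β at D1 and at D20 (horizontal axis) of the tested genes of 33 lists (vertical axis, number tested in brackets), ordered by the median difference of responses, with a grey line joining the 2 days. Mitosis (−0.12 and 1.48) stands at the upper end and the contractile genes (0.42 and −0.45) at the lower end.

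A difference of responses also equals the change from D1 to D20 in treated flasks minus that in untreated flasks, so it can come from either. Of the 985 genes, 366 (37.2%) had a called change over time without TGF-β and not with it, 334 (33.9%) with TGF-β and not without it, 114 in opposite directions, 150 in the same direction and 21 in neither. Early-only genes changed over time with TGF-β alone in 97 of 184 and without it alone in 42. Late-only genes did so in 163 and 259 of 601. Among the 310 late-only genes that were lower with TGF-β at D20, 165 rose in untreated cells without a called change in treated cells, ADAMTS1 and GPX3 among them. Of the 48 genes reversed from higher to lower, 22 rose in untreated and fell in treated cells, as CNN1 and ITGB3 did. A call in one arm and not in the other is a sorting, and the test of the arms against each other is the difference of responses itself.

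**Figure D5:**
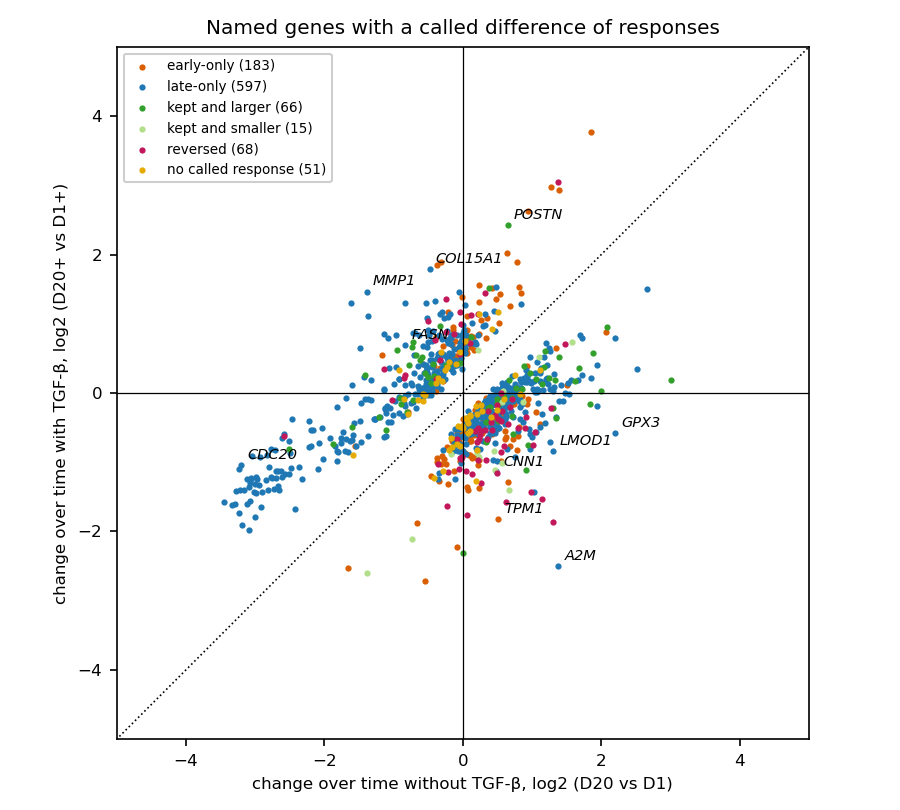
Log2 change from D1 to D20 with TGF-β (vertical axis) against the change without it (horizontal axis) for named genes with a called difference of responses, coloured by class, with a dotted line of equal change. Mitosis genes such as CDC20 form the group at the lower left, where both changes are below 0 and the untreated one is the larger fall, and LMOD1, CNN1 and A2M lie at the lower right, where untreated cells rose and treated cells fell.

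Exon bases shared with other genes, which can mix counts where strand was not used, were 35.9% of ACTA2, 22.7% of TPM1, 47.9% of TYMS, 36% of IL16, 31.2% of THBS2, 29.8% of PRDX1 and 18.9% of FZD4 on the opposite strand. On the same strand they were 33.2% of ITGB3, 49.3% of ASNS, 43.2% of DDX58, 27.5% of CSNK2B and 22.7% of TGFB2 by the GENCODE annotation of GRCh37. The partners are an antisense RNA and FAS for ACTA2 and ENOSF1 for TYMS.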

How the data were processed

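RNA was sequenced from 3 flasks of WI-38 cells in each of 4 conditions. The authors deposited whole-number counts per gene for each of 4 lanes of a library, from trimmed reads aligned to hg19, and a table of log2 cpm of the same lanes. Both cover 12 libraries, of 8674488 to 18286197 counts. The counting program, its annotation and strand setting are not given in the sources used here. The authors' own fold changes and p-values were not used.

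Lanes were summed, since lanes of 1 library are not replicates. Of 25702 genes, the 9490 reaching 10 cpm in 6 or more libraries were tested, scaled by TMM and fitted with edgeR 4.0.16 (R 4.3.3; quasi-likelihood, 1 coefficient per condition, biological coefficient of variation 9.35%). Intervals cover 95%. Calls used an adjusted p under 0.01, and the sorting into classes was tested on simulated data. Symbols came from the deposited table for 9240 genes and from RefSeq for 196, and 54 had none. Listed cpm divide by the library total times its TMM factor (0.969 to 1.04). Promoters matched 7838 of the tested genes.

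Members, lists and tests were chosen with earlier results of these data known. Named were, among genes whose call held without any 1 library, the 4 with the largest difference per class and direction (8 for reversed genes), for kept genes the 3 per direction with the largest smaller response, up to 4 called members per list by smallest p, and the genes measured by real-time PCR in the study. One early-only gene that this rule names is not reported here. FHL1, TAGLN, SKIL, PMEPA1, COL1A1, IFIT1, IFIT3, BMPR2, CCNB2 and further reversed genes were added after their values had been seen. Alternatives were DESeq2 1.42.0, limma 3.58.1 on the deposited log2 values and by voom, voom over 48 lanes, size factors of DESeq2, no composition factor, other gene filters, an adjusted p under 0.05, a replicate block and leaving out each library.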

Additional observations from a re-analysis of the deposited data

Results flagged for a closer look

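The response to TGF-β differed between the 2 days, by the test of the difference itself, for 985 genes and for the named genes given here. Each value is the difference of responses, D20 minus D1, on the log2 scale, with an adjusted p under 0.01 by edgeR's quasi-likelihood test, and was reported above by class. Groups of 3 flasks are too small for a check of single deviating flasks.

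Reversed genes with a difference below 0 were ITGB3 −3.17, GBP1 −2.67, DMD −2.42, FGF1 −1.83, PHLDB2 −1.77, CNN1 −1.65, SMURF2 −1.56, FHL2 −1.40, FERMT2 −1.37, ACTG2 −1.29, WNT5B −1.18, CNN2 −0.94, KDELR2 −0.81 and TEAD3 −0.63. Reversed genes with a difference above 0 were KIF20A 1.97 and FAM43A 1.67. Early-only genes with a difference below 0 were TPM1 −2.33, ADAM12 −2.15, ACTA2 −1.94, VGLL3 −1.56, CALD1 −1.44, TGFBI −1.34, LOXL4 −1.31, FSTL1 −1.08, TNS1 −1.08, SPARC −1.01, MSRB3 −0.87, ERRFI1 −0.70, KDELR3 −0.58 and ITGB1 −0.57. Early-only genes with a difference above 0 were NPTX1 2.23, NOV 1.73, IL16 1.69, AVPI1 1.39 and TYMS 0.79. Late-only genes with a difference below 0 were A2M −3.88, GPX3 −2.79, SERPING1 −2.46, TGFB2 −2.16, LMOD1 −2.14, P3H2 −1.70, CTSC −1.64, F3 −1.63, ADAMTS1 −1.57, LAMA4 −1.34, FZD4 −1.26, CRIM1 −1.04, SAMD9L −1.01, PRDX6 −0.97, DDX58 −0.96, ENG −0.88, WARS −0.85, ZEB1 −0.83, VCL −0.73, PRDX1 −0.68, LOXL2 −0.63 and SEC31A −0.50. Late-only genes with a difference above 0 were FABP3 2.91, MMP1 2.85, FAM129A 2.48, COL15A1 2.27, CDC20 2.16, BIRC5 1.90, HJURP 1.88, FADS1 1.82, CTSK 1.52, FASN 1.52, INSIG1 1.46, CCNB2 1.44, RRS1 1.27, FADS2 1.19, LAMA1 1.04, JUND 0.97, MCM7 0.94, VEGFB 0.92, IRS2 0.90 and IRS1 0.55. Kept and larger genes with a difference below 0 were ADAMTS19 −2.83, RELN −2.03, ARRDC4 −1.99, LIFR −1.70, JAG1 −1.32 and KITLG −0.92. Kept and larger genes with a difference above 0 were POSTN 1.78, SLC38A5 1.71, TRIB3 1.45, NTM 1.40, CDKN2B 1.30 and THBS2 1.09. Kept and smaller genes with a difference below 0 were NUAK1 −1.58, IGFBP3 −1.57, XYLT1 −1.38, BPGM −1.29, COL5A1 −1.002 and P4HA2 −0.70.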

How the results depend on the processing

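The call of a difference, 985 genes, was within 1.5 times that count with DESeq2 (1362), RLE size factors (988), filterByExpr (1107), no gene filter (1313), limma on the deposited log2 values (977), voom (966) and no composition factor (1142), and none of the called differences changed sign in any alternative. The share of calls above 0 was 66.6% without composition factors, against 43.5%. With voom over 48 lanes, which counts lanes as replicates, the counts were 3703 differences, 3895 D1 and 5154 D20 responses, 738 early-only, 1609 late-only, 1334 kept, 486 kept and larger, 175 kept and smaller and 569 reversed genes, and 1005 that changed over time in untreated cells alone. At an adjusted p under 0.05 they were 2040, 2335, 3924, 402, 1132, 959, 170, 51, 187 and 635 in the same order. Kept and larger genes numbered 101 with DESeq2 and 108 without a gene filter, and kept and smaller genes 27 and 24; the cause was not tested.

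Leaving out 1 library gave 543 to 1706 differences, 618 to 1876 D1 and 1747 to 3245 D20 responses, 78 to 385 early-only, 335 to 917 late-only, 319 to 699 kept, 28 to 90 kept and larger, 10 to 47 kept and smaller and 29 to 155 reversed genes, and 185 to 627 that changed over time in untreated cells alone. The highest count of differences came without D1 replicate 2 and the lowest without D1+ TGF-β replicate 2; a smaller design alone lowers such counts, and the cause of the rise was not tested. Deviations from the condition means of same-numbered flasks correlated at −0.223 to 0.325 over 18 pairs, and not every flask correlated best with one of its own number, so the numbers did not show a pairing. With the replicate number as a block, 831 differences were called, 811 of them among the 985, and no class count moved by over 1.5 times. Of the gene lists, the block did so for DNA replication (2 calls against 4), channels (0 against 2) and the cytosolic ribosome (0 against 1). For 110 of the named genes, TAGLN not among them, 2280 of 2296 alternative values of the difference kept direction and call, 14 gained and 2 lost it (both ITGB1), and 0 changed sign. Called genes named by class or list were chosen because their call held without any 1 library, so this stability was largely fixed by the choice. Of all 985 called genes, 490 held the call in each fit without 1 library.

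Genes under 10 cpm were not tested, so nothing is said of them. Day, passage, density and parent flask cannot be told apart, and the replicates at D20 share a parent flask. List counts under each setting and the CArG search were added after seeing the data.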
